A study of Arabidopsis thaliana with 12 samples.

Results

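Main inflorescence stems of the Arabidopsis thaliana double mutant ccrfer, which carries ccr1-3 and fer4, were compared with stems labelled fer, which carry fer4 alone by their label. There were 3 libraries of each, 6 of the 12 in the series, and all stems came from plants 2 months old. The other 6 libraries were 3 of the single mutant ccr (ccr1-3) and 3 of WT (Col-0). In the genotype field the fer allele of ccrfer replicates 2 and 3 is numbered differently from replicate 1; samples were grouped by title. The fer4 allele is thus on the labels of both groups, and ccr1-3 on those of ccrfer only. The labels call the replicates biological and do not say how many plants went into a library. If they came from shared plants or pools, the p-values below measure only the spread between these libraries.

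CCR1 encodes cinnamoyl-CoA reductase, the enzyme that commits phenylpropanoid units to the monolignols from which lignin is built, and stems of ccr1 mutants are known for low lignin and poor growth. FERONIA (FER) is a receptor kinase of the plasma membrane that binds RALF peptides together with LLG co-receptors and monitors the state of the cell wall. It is known for roles in cell growth, fertilization, immunity and hormone responses. By the labels, the comparison of ccrfer with fer asks what the ccr1-3 allele does to transcripts where FER function is lost.

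Sequencing gave 73646718, 108026632 and 90283966 reads in the ccrfer libraries, and 80776792, 56884740 and 105661460 reads in those labelled fer. Over these 6 libraries, 91.4 to 93.9% of reads mapped. The values are FPKM, fragment numbers divided by transcript length and by sequencing depth. Of 27655 genes, 18428 had an FPKM of 1 or more in at least 3 of the 12 libraries and were tested. Differences are ccrfer minus labelled fer on the log2(FPKM + 1) scale, which understates the change of genes at low FPKM, and a gene is called higher or lower at an adjusted p under 0.05 in limma. ccrfer replicate 3 stood apart: 9582 genes were listed at 0 in it, against 7101 and 6242 in the other two ccrfer libraries and 6318 to 8216 in those labelled fer. AT2G01021, a very short gene, had an FPKM of 45932600 in that library, against 6128100 and 113705 in ccrfer replicates 1 and 2 and 1429630 to 15147300 in the libraries labelled fer. Genes at low FPKM were often listed at 0 in ccrfer replicate 3, and whether AT2G01021 has a part in this was not tested. Pearson's r of log2(FPKM + 1) across tested genes was 0.885 to 0.940 between a ccrfer and a labelled fer library, against 0.938 to 0.983 between ccrfer libraries and 0.968 to 0.978 between libraries labelled fer.

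FER itself separated the groups. It lies on chr3:19117584-19120949, minus strand, in TAIR10.1. FER had 0.894, 0.159 and 1.49 FPKM in ccrfer, against 85.1, 83.1 and 84.0 FPKM in the libraries labelled fer, a difference of -5.59 (SE 0.197, adjusted p = 1.94e-09). The ccrfer libraries were thus near 0, while those labelled fer were at the level of WT, where FER averaged 84.1 FPKM. The transcript goes against the label, so these libraries are called labelled fer throughout, and every difference below is relative to stems that hold a full level of FER transcript. FER protein and the sequence of the transcript were not measured.

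Genes beside FER did not follow the same split. DGAT2, annotated as a diacylglycerol acyltransferase, had 0.13, 0.0415 and 0 FPKM in ccrfer and 0.374, 0 and 0 FPKM in the libraries labelled fer, against means of 19.7 in ccr and 24.3 in WT. AT3G51530 was listed at 0 in every ccrfer library and at 0.0316, 0 and 0 FPKM in those labelled fer, against means of 6.47 FPKM in ccr and 6.46 FPKM in WT. Both mutant groups with fer4 on their labels were therefore near 0 for 2 tested genes beside FER, and only ccrfer was near 0 for FER itself. On the other side of FER, AT3G51560 had 0.0404, 0.0452 and 0 FPKM in ccrfer, against 3.43, 4.17 and 4.05 FPKM in the libraries labelled fer, a difference of -2.24. That gene was near 0 in ccr and WT as well, so the libraries labelled fer were the high ones. It passed the filter on low FPKM only through them, so it had to differ. Farther out, AT3G51580 differed by 0.08 (adjusted p = 0.493) and AT3G51510 by 0.34 (adjusted p = 0.0567). The call on AT3G51510 changed with 1 library: its adjusted p was 0.0491 without ccrfer replicate 3 and 0.0137 without labelled fer replicate 2. AT3G51540, AT3G51570 and LTP12 were too low to be tested. AT3G51540 was listed at 0 in every ccrfer and labelled fer library and at 0.31 to 0.67 FPKM in those of ccr and WT.

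**Figure D1:**
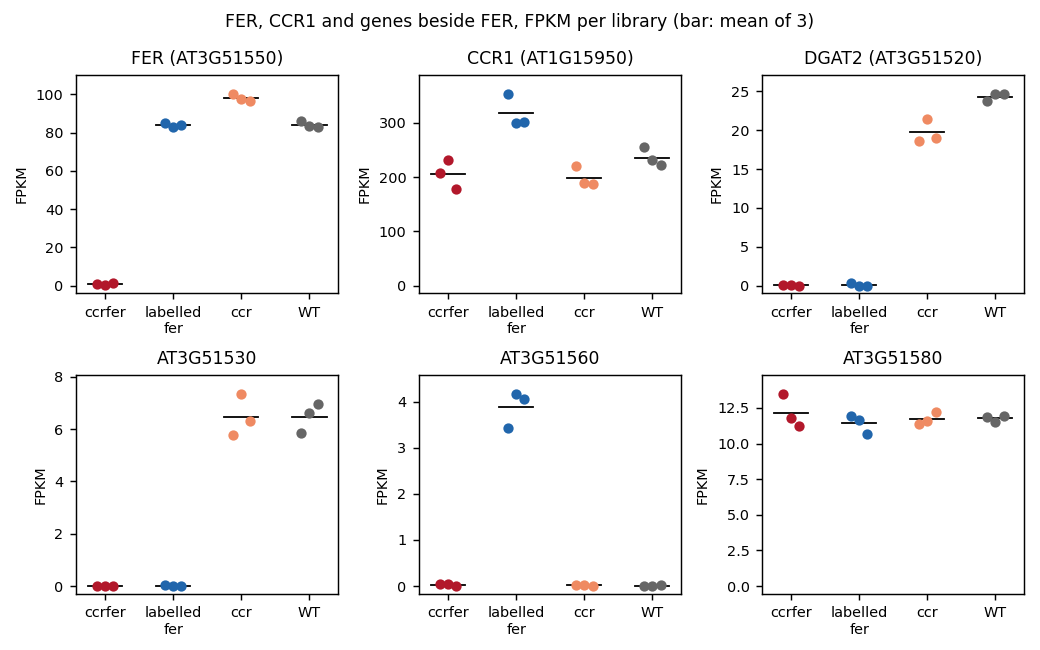
FPKM per library (vertical axes) of FER, CCR1 and 4 genes beside FER in ccrfer, labelled fer, ccr and WT stems; each point is 1 of 3 libraries and each bar their mean. FER is near 0 in ccrfer only, DGAT2 and AT3G51530 are near 0 in ccrfer and labelled fer, and AT3G51560 is above 3 FPKM in labelled fer only.

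CCR1 transcript was present in every library. It had 207, 231 and 179 FPKM in ccrfer, against 354, 301 and 302 FPKM in the libraries labelled fer, a difference of -0.63 (SE 0.104, adjusted p = 0.000474). The groups did not overlap. For ccr and WT the means were 199 ± 18.3 and 236 ± 17.3 FPKM (SD, n = 3 each), a difference of -0.25 (adjusted p = 0.0738). A transcript level outside a disrupted part does not test whether an allele is lost, and where reads fell within CCR1 was not analysed here.

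Across the transcriptome, 7481 of the 18428 tested genes (40.6%) were called, 3551 higher in ccrfer (19.3%) and 3930 lower (21.3%). Most differences were small: 674 of the genes called higher and 863 of those called lower reached 2-fold, and 94 and 124 reached 4-fold. The median difference over all tested genes was -0.01. Libraries of the groups did not overlap for 7921 genes (43.0%). A fit to these 6 libraries alone called 4380 genes, 1938 higher and 2442 lower, and 4379 of them were among the 7481. The counts of list members below are read against 19.3% higher and 21.3% lower for all tested genes. In stems, which hold many tissues, fewer cells of a type and less RNA per cell cannot be told apart.

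The 15 largest increases and the 15 largest decreases were taken among called genes whose libraries did not overlap between the groups, so that separation is part of the choice. Among the increases, GPT2, a plastid glucose-6-phosphate/phosphate translocator, had 66.1, 70.8 and 65.0 FPKM in ccrfer, against 2.57, 2.51 and 2.59 FPKM in the libraries labelled fer (difference 4.26, SE 0.0646, adjusted p = 1.86e-12). GPT2 averaged 63.3 FPKM in ccr and 17.59 FPKM in WT. Both genotypes with ccr1-3 thus stood above their counterpart, and the labelled fer mean was also below the WT mean. ISA3, an isoamylase that debranches starch during its breakdown, had 68.8, 70.3 and 74.1 FPKM in ccrfer, against 7.09, 5.19 and 7.2 FPKM in labelled fer (difference 3.28, SE 0.0929, adjusted p = 5.98e-10). For ISA3 the WT mean was 89.4 FPKM, so labelled fer was the low group among the 4 genotypes. CER1, needed for the alkanes of cuticular wax, had 30.3, 34.2 and 39.6 FPKM in ccrfer, against 0.572, 1.82 and 0.860 FPKM in labelled fer (difference 4.13, SE 0.192, adjusted p = 2.13e-08). CER1 averaged 12.7 FPKM in ccr and 0.0772 FPKM in WT, so both genotypes with ccr1-3 stood above their counterpart.

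The other genes among the 15 largest increases had varied roles. UMAMIT14, an amino acid exporter, had 24.0, 21.7 and 13.5 FPKM in ccrfer and 0, 0.304 and 0.376 FPKM in labelled fer (difference 4.05, adjusted p = 2.70e-08). AHP4, a histidine phosphotransfer protein of the cytokinin phosphorelay family, had 56.6, 68.8 and 71.3 FPKM in ccrfer and 2.85, 3.53 and 3.87 FPKM in labelled fer (difference 3.91, adjusted p = 4.93e-10). FPF1, named for promoting flowering, differed by 3.4 (adjusted p = 7.03e-08), OPR2, a 12-oxophytodienoate reductase, by 3.18 (adjusted p = 3.89e-08) and GSTU24, a tau class glutathione transferase, by 2.90 (adjusted p = 7.59e-07). By their means, UMAMIT14, AHP4, FPF1, OPR2 and GSTU24 were each lowest in labelled fer. Their WT means were 7.63, 37.9, 31.8, 12.8 and 13.8 FPKM. For FPF1 the ccrfer mean of 19.6 FPKM was also below WT. AT1G66300, AT1G13825, AT4G33550 and AT3G62730 differed by 3.02 to 3.20. AT1G64795 had 126, 113 and 72.2 FPKM in ccrfer and was listed at 0 in all 3 libraries labelled fer. It averaged 195 FPKM in ccr and 1.37 FPKM in WT, so both genotypes with ccr1-3 stood above their counterpart. It lies inside another gene on the opposite strand, and the strand setting of the counting is not given in the sources used here, so its value is uncertain.

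Among the 15 largest decreases, 7 were seed storage or oil body genes (CRA1, CRU2, CRU3, SESA2, SESA3, SESA4 and OLEO1). Each passed the filter on low FPKM only through the libraries labelled fer. They therefore had to differ, and their count is not read as a result. SESA3, a 2S seed storage albumin, had 0.505, 0.203 and 0 FPKM in ccrfer, against 57.9, 56.2 and 68.1 FPKM in labelled fer (difference -5.66). CRU3, a 12S cruciferin, had 0.0961, 0.0172 and 0 FPKM in ccrfer, against 27.2, 31.3 and 29.6 FPKM in labelled fer (difference -4.87). Labelled fer was the high group in both, since SESA3 and CRU3 averaged 0.629 and 0.260 FPKM in ccr and were listed at 0 in WT. Members of the SESA family resemble each other, and how the authors' counting shared reads between near-identical copies is not given here, so single SESA values are uncertain.

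The other 8 of the 15 largest decreases were FER, given above, and genes of no single kind. NAS4, a nicotianamine synthase that makes a metal chelator, had 9.69, 8.55 and 2.68 FPKM in ccrfer, against 89.3, 87.7 and 79.1 FPKM in labelled fer (difference -3.58, SE 0.296, adjusted p = 2.31e-06). AT3G19030 had 9.29, 9.36 and 3.61 FPKM in ccrfer, against 138, 168 and 162 FPKM in labelled fer (difference -4.31, adjusted p = 2.41e-07). In both genes ccrfer replicate 3 was the lowest library. AT4G15660, AT1G06830 and AT2G05540 differed by -4.10, -3.58 and -3.59, with adjusted p of 1.48e-07, 7.34e-06 and 2.44e-06. ATCG00490, a chloroplast identifier, and RR3, a response regulator, were listed at 0 in all ccrfer, ccr and WT libraries, against 25828, 23189 and 23235 FPKM and 6599, 7092 and 6146 FPKM in labelled fer. Exact zeros in 9 libraries beside such high FPKM in 3 can be failed estimates, so no fold is given for these 2. Both also passed the filter on low FPKM only through the libraries labelled fer, so they had to differ.

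**Figure D2:**
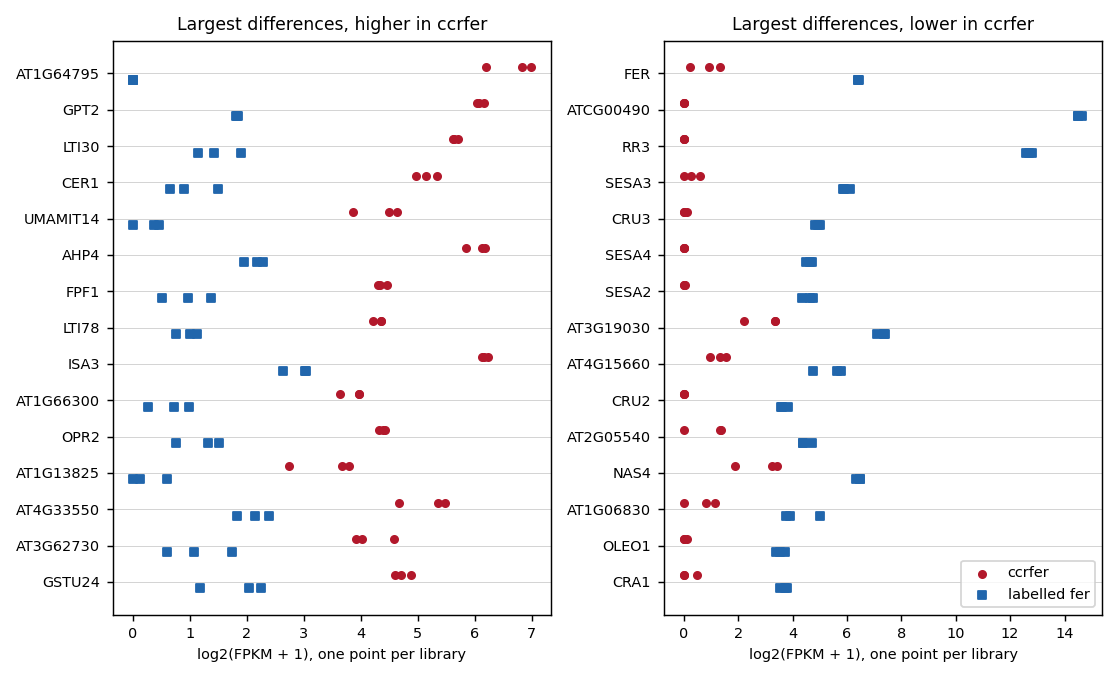
log2(FPKM + 1) per library (horizontal axes) of the 15 genes with the largest increases (left) and the 15 with the largest decreases (right) in ccrfer; circles are the 3 ccrfer libraries and squares the 3 libraries labelled fer. The genes were chosen among those whose groups do not overlap, and AT1G64795, ATCG00490, RR3, SESA4 and CRU2 are listed at 0 throughout 1 group.

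The promoters of CRU3 and SESA3 are shown because SESA3 and CRU3 were the seed storage genes with the largest decreases. The RY motif, CATGCA on either strand, is the element through which B3 factors such as ABI3 and FUS3 act on seed genes, and it is in capitals. The windows run from 250 bases before to 50 bases after the annotated start, plus strand, in RefSeq TAIR10.1, CRU3 at chr4:14087306-14087605 and SESA3 at chr4:13611546-13611845.
CRU3: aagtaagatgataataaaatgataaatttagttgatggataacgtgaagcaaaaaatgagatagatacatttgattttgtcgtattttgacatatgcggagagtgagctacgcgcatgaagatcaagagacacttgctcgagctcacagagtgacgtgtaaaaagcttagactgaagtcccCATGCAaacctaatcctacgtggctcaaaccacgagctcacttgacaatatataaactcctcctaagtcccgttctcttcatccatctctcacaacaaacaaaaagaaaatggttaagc
SESA3: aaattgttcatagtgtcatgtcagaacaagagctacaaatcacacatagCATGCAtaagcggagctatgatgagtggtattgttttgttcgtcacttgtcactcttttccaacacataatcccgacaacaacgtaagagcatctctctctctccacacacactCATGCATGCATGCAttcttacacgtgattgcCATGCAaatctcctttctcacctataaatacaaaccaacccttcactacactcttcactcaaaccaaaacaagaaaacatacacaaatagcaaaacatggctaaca
CRU3 holds 1 match and SESA3 holds 7, counted on both strands with overlaps. Of 27443 protein-coding promoters of this length, 2667 (9.72%) hold RY, as do 9 of 13 (69.2%) of the seed and silique list. The list was chosen with these results known.

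Of the 13 seed and silique genes, 9 passed the filter on low FPKM, and 8 of these passed only through the libraries labelled fer, so they had to differ and neither their count nor their median is read as a result. SHP1 was the other one. In each other list at most 1 tested member passed only through ccrfer or only through labelled fer. The list's summed level was 0 to 2.31 FPKM in the 3 ccrfer libraries and 153 to 167 FPKM in those labelled fer, against 4.22 to 4.50 in ccr and 0.995 to 2.02 in WT. Of the regulators of seed maturation, LEC1 was listed at 0 in all 6 libraries, and FUS3 and ABI3 were at most 0.437 FPKM in each. SHP1, a MADS factor of the fruit valve margin, had 1.04, 1.07 and 0 FPKM in ccrfer and 1.42, 3.02 and 2.25 FPKM in labelled fer (difference -0.97, adjusted p = 0.0258). Seed storage genes were thus clearly present, in tissue labelled as stem, in the libraries labelled fer only. Whether seed tissue in those libraries has a part in the other differences was not tested. Of 12 flower and pollen genes only 2 could be tested, and the list summed to 0.859 to 2.83 FPKM in ccrfer and 3.35 to 7.14 FPKM in labelled fer. VGD1, a pectin methylesterase of pollen tubes, was lower, with a difference of -1.38 (adjusted p = 0.000287). Both tested genes were called lower without ccrfer replicate 1 or labelled fer replicate 3. The other gene, AT5G45880, passed the filter on low FPKM only through labelled fer, so its calls are not read as a result.

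Lignin genes were divided. Of 23 tested lignin biosynthesis genes, 10 were higher in ccrfer and 2 lower, with a median difference of 0.15. Genes of the general phenylpropanoid steps went different ways. PAL1, a phenylalanine ammonia-lyase, had 490, 536 and 423 FPKM in ccrfer and 494, 449 and 453 FPKM in labelled fer (difference 0.05, adjusted p = 0.662), and C4H, cinnamate 4-hydroxylase, differed by 0.09 (adjusted p = 0.253). PAL4, another phenylalanine ammonia-lyase, had 110, 121 and 107 FPKM in ccrfer, against 73.9, 71.8 and 72.4 FPKM in labelled fer (difference 0.625, adjusted p = 3.48e-05). PAL1 overlapped between the groups and PAL4 did not. 4CL2, a 4-coumarate:CoA ligase, had 105, 119 and 108 FPKM in ccrfer, against 37.9, 38.1 and 34.0 FPKM in labelled fer (difference 1.57, SE 0.069, adjusted p = 1.29e-08). MYB63, a factor that switches on lignin genes, had 28.4, 25.5 and 28.5 FPKM in ccrfer, against 5.95, 4.36 and 6.95 FPKM in labelled fer (difference 2.1, adjusted p = 1.06e-06). CCoAOMT1, a methyltransferase of monolignol synthesis, averaged 1236 ± 55.4 FPKM in ccrfer and 668 ± 17.4 FPKM in labelled fer (SD, n = 3 each; difference 0.89, adjusted p = 3.26e-07). The laccases IRX12 and LAC17 and the peroxidase PER64, which oxidize monolignols in the wall, rose by 1.26, 1.36 and 1.5. The laccase LAC11 and the peroxidase PRX52 differed by -0.08 (adjusted p = 0.692) and 0.01 (adjusted p = 0.970).

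The 2 lignin genes that fell were PAL3 and FAH1. PAL3 had 11.4, 10.6 and 7.81 FPKM in ccrfer, against 27.5, 27.0 and 21.8 FPKM in labelled fer (difference -1.28, adjusted p = 1.82e-05). FAH1, ferulate 5-hydroxylase, which directs monolignols to syringyl units, had 234, 253 and 234 FPKM in ccrfer, against 426, 415 and 433 FPKM in labelled fer (difference -0.82, adjusted p = 3.03e-07). FAH1 was below labelled fer in every ccrfer library. CCR2, the second cinnamoyl-CoA reductase, had 20.1, 22.4 and 12.7 FPKM in ccrfer and 12.3, 11.1 and 12.4 FPKM in labelled fer (difference 0.55, adjusted p = 0.0163).

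Genes of secondary wall cellulose and xylan rose as a group. Of 23 tested, 18 were higher in ccrfer and none lower, with a median difference of 1.02. Their summed level was 1423 to 1531 FPKM in ccrfer and 652 to 689 FPKM in labelled fer. Among the cellulose synthases of the secondary wall, IRX3 had 141, 152 and 153 FPKM in ccrfer, against 52.3, 47.5 and 47.6 FPKM in labelled fer (difference 1.58, SE 0.0899, adjusted p = 1.09e-07). CESA4 had 133, 139 and 108 FPKM in ccrfer, against 48.2, 45.7 and 40.5 FPKM in labelled fer (difference 1.47, adjusted p = 9.51e-07), and IRX1 rose by 1.41. For these synthases no library of ccrfer came within the range of labelled fer. Among xylan genes, PGSIP3, which adds glucuronic acid to xylan, had 19.2, 22.4 and 27.4 FPKM in ccrfer, against 3.88, 3.02 and 3.71 FPKM in labelled fer (difference 2.40, adjusted p = 1.09e-07). IRX9 and GAUT12, both needed for the xylan chain, rose by 1.68 and 1.66. The master regulator NAC012 had 20.5, 22 and 23.2 FPKM in ccrfer, against 9.20, 13.8 and 7.45 FPKM in labelled fer (difference 1.07, adjusted p = 0.000305), while NST1 differed by 0.03 (adjusted p = 0.860). The proteases of xylem vessels XCP1 and XCP2 differed by 0.02 and 0.13, without a call.

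Primary wall genes went both ways, 4 of 12 tested being higher and 4 lower. CESA1 and CEV1, cellulose synthases of growing cells, rose by 0.71 and 0.67 (adjusted p = 1.65e-06 and 2.69e-06). EXPA10, an expansin, had 23.9, 31.9 and 34.3 FPKM in ccrfer, against 3.04, 4.13 and 2.48 FPKM in labelled fer (difference 2.88, adjusted p = 8.37e-08). EXPA4, another expansin, had 54.7, 57.9 and 67.5 FPKM in ccrfer, against 113, 140 and 136 FPKM in labelled fer (difference -1.10, adjusted p = 7.96e-06). The 2 expansins thus moved in opposite directions. XTH24, a xyloglucan endotransglucosylase/hydrolase, fell by 0.93 (adjusted p = 6.67e-05).

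Among 14 tested genes of the FER family and its partners, FER was the only one lower in ccrfer and RALF23 the only one higher. RALF23, a peptide ligand of FER, had 65.4, 79.2 and 47.0 FPKM in ccrfer and 48.1, 40.2 and 41.3 FPKM in labelled fer (difference 0.53, adjusted p = 0.0166). Its groups overlapped, and the call was lost without ccrfer replicate 2 (adjusted p = 0.0571), labelled fer replicate 2 (adjusted p = 0.0563) or labelled fer replicate 3 (adjusted p = 0.0518). Without labelled fer replicate 2, 4 members of the list were called lower, and 2 were without ccrfer replicate 1 or ccrfer replicate 2. The co-receptor gene LLG1 differed by -0.09 (adjusted p = 0.569) and the related receptor kinases HERK1 and THE1 by 0.16 (adjusted p = 0.174) and 0.14 (adjusted p = 0.583).

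**Figure D3:**
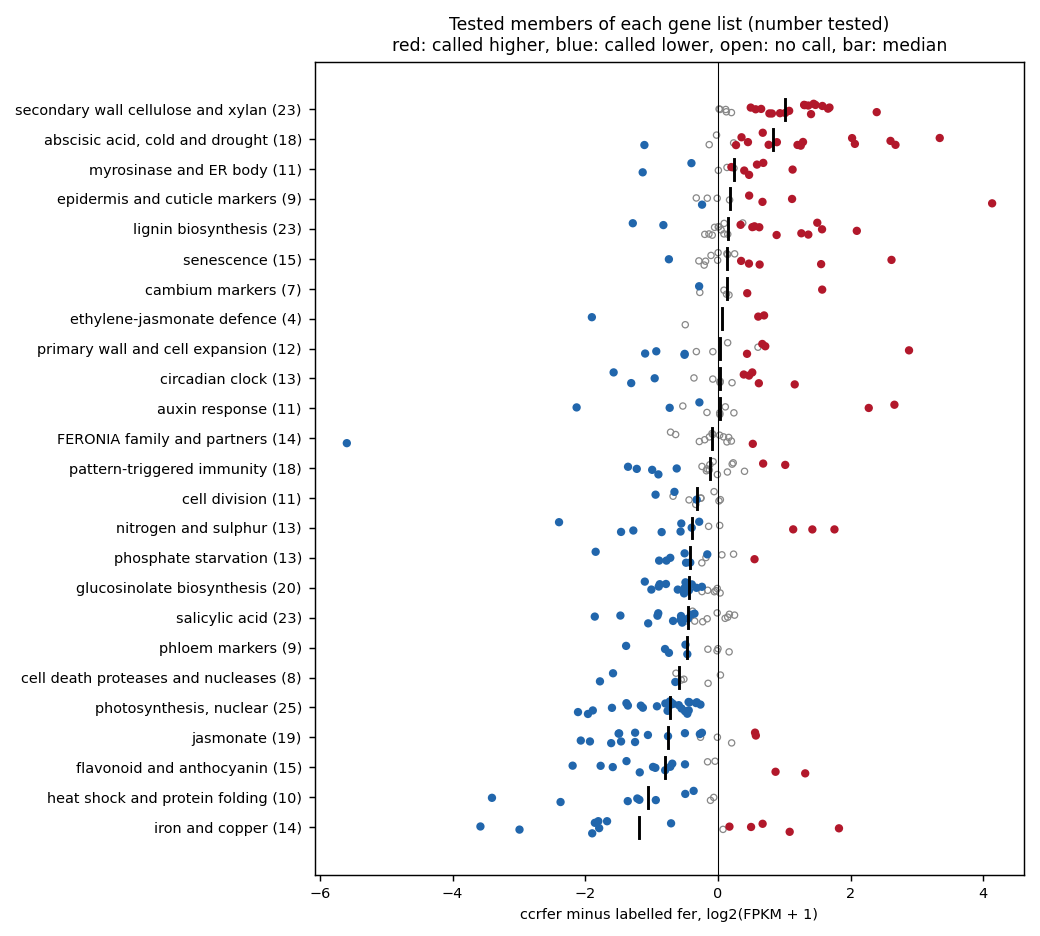
Difference ccrfer minus labelled fer on the log2(FPKM + 1) scale (horizontal axis) for each tested member of the gene lists with at least 3 tested members, with the number tested in brackets; red points were called higher, blue points lower, open points not called, and bars are medians; the seed and silique list is left out because most of its members passed the filter only through labelled fer. Secondary wall genes, with a median of 1.02, are at the top, and iron and copper genes, with a median of -1.19 and members on both sides of 0, at the bottom.

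Genes of abscisic acid, cold and drought rose in ccrfer: 14 of 18 tested were higher and 1 lower, with a median difference of 0.83. Their summed level was 1243 to 1392 FPKM in ccrfer and 388 to 390 FPKM in labelled fer, against 1198 to 1294 in ccr and 1003 to 1115 in WT. By this sum labelled fer was the low group among the 4 genotypes, though not in every member. LTI78, also known as RD29A, a marker of cold, drought and abscisic acid, had 17.5, 19.5 and 19.5 FPKM in ccrfer, against 1.00, 0.692 and 1.19 FPKM in labelled fer (difference 3.35, SE 0.1, adjusted p = 7.58e-10). RD22, a drought gene, had 702, 802 and 714 FPKM in ccrfer, against 116, 115 and 112 FPKM in labelled fer (difference 2.68, SE 0.0685, adjusted p = 2.89e-10). Unlike the sum, RD22 was lowest in WT, with a mean of 76.7 FPKM. KIN2, a small cold-induced protein, had 83.3, 103 and 89.6 FPKM in ccrfer, against 12.7, 13 and 17.56 FPKM in labelled fer (difference 2.60, adjusted p = 8.45e-09). The groups were far apart in each of these genes.

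The dehydrins COR47 and ERD10, which protect cells that lose water, rose by 1.25 and 1.2. LTI30, a dehydrin among the 15 largest increases and not on the list, had 48.3, 51.2 and 48.7 FPKM in ccrfer, against 1.21, 2.74 and 1.68 FPKM in labelled fer (difference 4.17, SE 0.146, adjusted p = 1.93e-09). DREB1A, the cold factor also called CBF3, had 6.90, 5.45 and 0.931 FPKM in ccrfer and 0.197, 0 and 0.220 FPKM in labelled fer (difference 2.02, adjusted p = 0.00148), with ccrfer replicate 3 well below the other two ccrfer libraries. RD26, a NAC factor of drought, was the member that fell, with 3.36, 3.07 and 4.78 FPKM in ccrfer and 9.82, 10.5 and 7.25 FPKM in labelled fer (difference -1.11, adjusted p = 0.000137). The gene of the abscisic acid synthesis enzyme NCED3 differed by 0.45 (adjusted p = 0.0381).

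Promoters of LTI78 and LTI30 are shown because they were the list's and the dehydrins' largest increases. Capitals mark the core of the dehydration-responsive element, CCGAC, to which CBF and DREB factors bind, and the core of the abscisic acid-responsive element, ACGTG, to which ABF factors bind, on either strand. The windows have the same extent and build as above, plus strand, LTI78 at chr5:21240467-21240766 and LTI30 at chr3:18940393-18940692.
LTI78: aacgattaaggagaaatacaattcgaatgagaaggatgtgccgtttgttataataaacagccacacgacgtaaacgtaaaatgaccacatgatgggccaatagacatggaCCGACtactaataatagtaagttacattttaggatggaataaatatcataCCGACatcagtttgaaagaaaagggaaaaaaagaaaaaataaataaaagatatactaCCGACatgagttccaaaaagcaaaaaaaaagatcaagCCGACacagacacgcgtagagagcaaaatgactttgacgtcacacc
LTI30: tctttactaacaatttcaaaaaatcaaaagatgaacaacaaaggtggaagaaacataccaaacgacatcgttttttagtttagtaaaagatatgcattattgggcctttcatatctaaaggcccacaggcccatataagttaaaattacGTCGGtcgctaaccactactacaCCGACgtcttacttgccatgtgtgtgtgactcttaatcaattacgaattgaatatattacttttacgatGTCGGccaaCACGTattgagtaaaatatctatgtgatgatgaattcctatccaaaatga
LTI78 holds 4 CCGAC cores and no ACGTG in this window, and LTI30 holds 3 CCGAC cores and 1 ACGTG. The core CCGAC is in 4 of 20 (20.0%) promoters of the list, against 4130 of 27443 (15%) of all. ACGTG, which also lies within the G-box CACGTG, is in 10 of 20 (50%), against 7333 of 27443 (26.7%). It is also in 12 of 20 (60%) promoters of the jasmonate list, 12 of 13 (92.3%) of the clock list, 6 of 12 (50%) of the heat shock list and 11 of 25 (44%) of the photosynthesis list, which fell or went both ways.

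Photosynthesis genes of the nucleus were lower in ccrfer throughout the list, with 25 of 25 called and a median difference of -0.72. Their summed level was 6301 to 8301 FPKM in ccrfer and 12170 to 13440 FPKM in labelled fer, against 7154 to 7707 in ccr and 8213 to 8913 in WT. RCA, Rubisco activase, had 769, 819 and 618 FPKM in ccrfer, against 2038, 1822 and 1763 FPKM in labelled fer (difference -1.36, SE 0.104, adjusted p = 1.18e-06). LHCB2.2, a light-harvesting protein of photosystem II, had 79.1, 89.2 and 46.9 FPKM in ccrfer, against 319, 309 and 278 FPKM in labelled fer (difference -2.11, adjusted p = 2.49e-06). RBCS3B, a small subunit of Rubisco, had 74.2, 74.8 and 60.3 FPKM in ccrfer, against 284, 269 and 265 FPKM in labelled fer (difference -1.96, adjusted p = 1.98e-08). Labelled fer was the high group, and ccrfer replicate 3 the lowest ccrfer library, in these genes. The smallest change was that of LHCA1, which fell by 0.26. After quantile normalization 16 of the 25 were called lower. The RBCS and LHCB genes have near-identical copies, so the split among them is uncertain.

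Jasmonate genes fell in ccrfer, with 13 of 19 tested lower, 2 higher and a median difference of -0.75. The list summed to 1472 to 1661 FPKM in ccrfer and 3431 to 3458 FPKM in labelled fer, both above the 671 to 693 of ccr and the 519 to 533 of WT. LOX2, a lipoxygenase at the start of jasmonate synthesis, had 68.7, 70.3 and 71.3 FPKM in ccrfer, against 221, 212 and 215 FPKM in labelled fer (difference -1.61, SE 0.0672, adjusted p = 8.38e-09). VSP2, a vegetative storage protein and classic jasmonate marker, had 821, 843 and 745 FPKM in ccrfer, against 1940, 1870 and 1906 FPKM in labelled fer (difference -1.25, SE 0.0588, adjusted p = 2.38e-08). MYC2, the central factor of the response, had 76.7, 87.5 and 79.9 FPKM in ccrfer, against 203, 197 and 183 FPKM in labelled fer (difference -1.25, adjusted p = 1.05e-07). Synthesis, regulator and marker were each lower in every ccrfer library. Of the JAZ repressors, which jasmonate itself induces, TIFY7 (JAZ9) fell by 1.49, JAZ5 by 1.5 and JAZ1 by 0.50. The 2 genes that rose were LOX3, by 0.57, and CYP94C1, which oxidizes and so inactivates jasmonoyl-isoleucine, by 0.56. Of 4 tested genes of the branch of defence shared by ethylene and jasmonate, 1 fell and 2 rose, with a median of 0.06. PR4 fell by 1.90 (adjusted p = 1.48e-07). The factors ORA59 and ERF1 rose by 0.61 (adjusted p = 0.00529) and 0.70 (adjusted p = 0.0291). ERF1 had no call without ccrfer replicate 1, ccrfer replicate 3 or labelled fer replicate 3 (differences of 0.65, 0.66 and 0.39), and neither factor had one in the fit to the 6 libraries alone. PDF1.2 was listed at 0 in all ccrfer libraries and was too low to be tested.

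Salicylic acid genes were lower or without a call: 13 of 23 tested fell and none rose, with a median difference of -0.45, and 8 fell in the fit to the 6 libraries alone. The list summed to 635 to 657 FPKM in ccrfer and 1134 to 1185 FPKM in labelled fer. BGL2 (PR2), a secreted glucanase, had 360, 374 and 386 FPKM in ccrfer, against 807, 761 and 756 FPKM in labelled fer (difference -1.05, SE 0.0613, adjusted p = 1.37e-07). EDS16 (ICS1), the isochorismate synthase that makes most pathogen-induced salicylic acid, had 6.12, 5.39 and 7.68 FPKM in ccrfer, against 13, 12.6 and 12.7 FPKM in labelled fer (difference -0.91, adjusted p = 2.33e-05). PR1, the usual marker, was near 1 FPKM or below in both groups and differed by -0.47 (adjusted p = 0.168). NPR1, a receptor of salicylic acid, differed by 0.15 (adjusted p = 0.190). Without labelled fer replicate 1, 2 members of the list were called higher, and without labelled fer replicate 3, 1 was.

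In pattern-triggered immunity, 2 of 18 tested genes were higher and 5 lower. FLS2, the flagellin receptor, had 5.29, 5.23 and 5.8 FPKM in ccrfer, against 2.64, 1.3 and 2.84 FPKM in labelled fer (difference 1.02, adjusted p = 0.000688), and WRKY33 rose by 0.68. PAD3, which makes camalexin, had 10.2, 13.4 and 9.87 FPKM in ccrfer, against 28.9, 24.8 and 27.9 FPKM in labelled fer (difference -1.22, adjusted p = 3.43e-06), and WRKY53 fell by 1.35. FLS2 rose and the receptors EFR and CERK1 had no call, while the camalexin gene fell. Without ccrfer replicate 2, 4 genes of the list were called higher, and without ccrfer replicate 3, 5 were.

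Glucosinolate genes fell or had no call, with 14 of 20 tested lower, none higher and a median difference of -0.44. CYP83B1, of the branch that starts from tryptophan, had 329, 340 and 312 FPKM in ccrfer, against 703, 685 and 718 FPKM in labelled fer (difference -1.10, SE 0.0603, adjusted p = 7.99e-08). CYP79B2, which starts that branch, had 80.5, 90.4 and 77.3 FPKM in ccrfer, against 161, 146 and 150 FPKM in labelled fer (difference -0.88, adjusted p = 1.48e-06), and its factor MYB34 fell by 1.00, while MYB51, another factor of that branch, differed by 0.03 (adjusted p = 0.794). In the branch from methionine, CYP79F1 differed by -0.15 (adjusted p = 0.0772), and BCAT4 and MAM1 by -0.03 and -0.05, without a call. Among the myrosinases and their partners, which break glucosinolates down, 6 of 11 were higher and 2 lower. TGG1 had 193, 195 and 186 FPKM in ccrfer, against 121, 118 and 117 FPKM in labelled fer (difference 0.69, adjusted p = 1.19e-05), and TGG2, its close copy, rose by 1.13 (adjusted p = 0.00026; 0.0581 with a pseudocount of 0.1).

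Most flavonoid and anthocyanin genes were lower in ccrfer. Of 15 tested, 11 fell and 2 rose, with a median difference of -0.79. TT4, chalcone synthase, which opens the pathway, had 378, 397 and 331 FPKM in ccrfer and 373, 381 and 381 FPKM in labelled fer (difference -0.04, adjusted p = 0.692). DFR, dihydroflavonol reductase, had 163, 180 and 183 FPKM in ccrfer, against 457, 459 and 453 FPKM in labelled fer (difference -1.38, SE 0.0542, adjusted p = 4.87e-09). TT4 overlapped between the groups, whereas DFR did not. LDOX, which follows DFR, had 93.8, 112 and 123 FPKM in ccrfer, against 348, 325 and 315 FPKM in labelled fer (difference -1.58, SE 0.0909, adjusted p = 1.14e-07). PAP1, the MYB factor that drives anthocyanin synthesis, had 43.9, 41.5 and 46.2 FPKM in ccrfer, against 149, 152 and 154 FPKM in labelled fer (difference -1.77, SE 0.0562, adjusted p = 1.03e-09). The flavonol genes FLS1 and MYB12 were the 2 that rose, by 0.87 and 1.32, at low FPKM.

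Heat shock and protein folding genes were lower, 8 of 10 tested, with none higher and a median difference of -1.06. HSP70 (AT3G12580) had 12.1, 16.1 and 13.5 FPKM in ccrfer, against 160, 158 and 151 FPKM in labelled fer (difference -3.40, SE 0.0896, adjusted p = 3.52e-10). HSP90.1 had 19.1, 19.4 and 20.5 FPKM in ccrfer, against 107, 105 and 105 FPKM in labelled fer (difference -2.37, SE 0.0571, adjusted p = 1.93e-10). These cytosolic chaperones averaged 20.0 and 25 FPKM in ccr and 27.8 and 29.3 FPKM in WT, so labelled fer was the high group for these 2. The whole list summed to 300 to 325 FPKM in ccrfer and 603 to 645 FPKM in labelled fer, against 584 to 632 in ccr and 426 to 474 in WT, so over the list ccrfer was the low group. The endoplasmic reticulum chaperone BIP2 fell by 0.49 and CNX1 by 0.37, and BIP1 differed by -0.11 without a call.

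Iron and copper genes went both ways, with 5 of 14 tested higher and 8 lower and a median difference of -1.19. BTS, an E3 ligase that restrains iron uptake, had 45.4, 46.3 and 49.98 FPKM in ccrfer, against 170, 163 and 164 FPKM in labelled fer (difference -1.79, SE 0.0513, adjusted p = 6.05e-10). PYE, a factor induced by iron deficiency, had 6.13, 6.46 and 8.10 FPKM in ccrfer, against 30.1, 30.5 and 22.3 FPKM in labelled fer (difference -1.85, adjusted p = 1.10e-06). BHLH101, of the factors that respond to low iron, had 0.219, 0.21 and 0 FPKM in ccrfer and 9.87, 7.64 and 6.87 FPKM in labelled fer (difference -2.99, adjusted p = 6.30e-08). FER1, the ferritin that stores iron, moved the other way, with 251, 252 and 227 FPKM in ccrfer, against 73.5, 65.6 and 64.8 FPKM in labelled fer (difference 1.83, SE 0.063, adjusted p = 1.76e-09). Not all genes known for low iron fell: FRO2, a ferric reductase, and FRU (FIT), a factor of iron uptake, rose by 0.50 and 1.08 at low FPKM. FSD1 fell by 1.89 and CSD1 rose by 0.67, 2 superoxide dismutases that use iron and copper. In the fit to the 6 libraries alone 3 genes of the list were higher.

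Nitrogen and sulphur genes showed 3 of 13 tested higher and 8 lower. NIA1, a nitrate reductase, had 49.2, 55.7 and 53.3 FPKM in ccrfer, against 15.6, 14.3 and 14.8 FPKM in labelled fer (difference 1.76, adjusted p = 4.87e-09), while NIA2, the other one, fell by 0.56 (adjusted p = 3.07e-05). GSR 1, a cytosolic glutamine synthetase, had 348, 357 and 308 FPKM in ccrfer, against 124, 121 and 130 FPKM in labelled fer (difference 1.43, adjusted p = 2.14e-08). The paralogous nitrate reductases moved apart. In the assimilation of sulphate, APR2 fell by 1.27 and APR3 rose by 1.14. Of 13 tested phosphate starvation genes, 8 were lower and 1 higher, with a median of -0.42, and 4 were lower in the fit to the 6 libraries alone. PAP17, an acid phosphatase, had 7.58, 8.56 and 3.81 FPKM in ccrfer, against 25.2, 26.8 and 24.0 FPKM in labelled fer (difference -1.84, adjusted p = 1.48e-05). MGDC, a galactolipid synthase, was the member that rose, by 0.55. Without ccrfer replicate 3, 2 phosphate genes were called higher, and without labelled fer replicate 3, none was.

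Clock genes went both ways. LHY, a morning factor, had 133, 133 and 142 FPKM in ccrfer, against 343, 340 and 328 FPKM in labelled fer (difference -1.31, SE 0.052, adjusted p = 5.46e-09). CCA1, its partner, had 126, 130 and 132 FPKM in ccrfer, against 263, 246 and 245 FPKM in labelled fer (difference -0.95, SE 0.0497, adjusted p = 5.54e-08), and RVE8 fell by 1.57. These 3 morning genes were lower in every ccrfer library. The daytime and evening genes PRR7, PRR5, TOC1 and FKF1 rose by 0.62, 1.16, 0.47 and 0.52, and the clock output GRP7 by 0.39, while PRR9, GI, ELF3, ELF4 and PCL1 (LUX) had no call. Over the list 5 of 13 were higher and 3 lower, and in the fit to the 6 libraries alone 1 was higher and 3 lower. The time of day of harvest is not given in the sources used here, and its part in these differences was not tested.

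Among senescence genes, 5 of 15 were higher and 1 lower. SAG12, a cysteine protease known as a late marker of senescence, had 43.4, 43.2 and 48.1 FPKM in ccrfer, against 7.76, 6.13 and 5.67 FPKM in labelled fer (difference 2.62, SE 0.091, adjusted p = 1.83e-09). NAC6 (ORE1), a factor that promotes senescence, had 4.22, 5.04 and 2.99 FPKM in ccrfer, against 0.843, 0.381 and 0.940 FPKM in labelled fer (difference 1.56, adjusted p = 2.07e-05). Both genes were lower in labelled fer than in WT, where SAG12 averaged 327 FPKM and NAC6 14.6 FPKM. The ccrfer means of 44.9 and 4.08 FPKM were below WT as well, as were the ccr means of 31.6 and 3.37 FPKM. SAG13 was the member that fell, by 0.74. Without ccrfer replicate 3, 2 members were called lower. Of 8 genes of developmental cell death, 3 were lower, among them the metacaspase gene MC9, with 10.5, 6.46 and 3.02 FPKM in ccrfer, against 20.7, 23.5 and 25.2 FPKM in labelled fer (difference -1.78, adjusted p = 0.000342).

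Auxin response genes moved unevenly, with 2 of 11 tested higher and 3 lower. WES1 (GH3.5), which conjugates auxin to amino acids, had 36.2, 40.1 and 38.2 FPKM in ccrfer, against 5.81, 5.13 and 4.67 FPKM in labelled fer (difference 2.66, SE 0.0785, adjusted p = 6.56e-10). DFL1 (GH3.6), its relative, rose by 2.27 (adjusted p = 1.74e-06), while IAA19, a repressor of the auxin response, fell by 2.13 (adjusted p = 0.0017). Without labelled fer replicate 1, 1 member was called lower. Cell division genes gave 3 of 11 lower and none higher. These were CYC1BAT, a mitotic cyclin, at -0.94, SYP111, a syntaxin of the forming cell plate, at -0.65 and CYCD3;1, a D-type cyclin, at -0.32. None was called without ccrfer replicate 3, labelled fer replicate 1 or labelled fer replicate 3, nor in the fit to the 6 libraries alone. Without ccrfer replicate 3 the differences were -0.59 for CYC1BAT, -0.41 for SYP111 and -0.29 for CYCD3;1, and in the fit to the 6 libraries alone they were as large as with all libraries.

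Markers of stem cell types did not move together. Among 7 tested cambium genes, 2 were higher, 1 was lower and 4 had no call. WOX4, which keeps the cambium dividing, had 20.7, 25.4 and 35 FPKM in ccrfer, against 8.55, 7.63 and 8.48 FPKM in labelled fer (difference 1.57, SE 0.164, adjusted p = 1.43e-05), while PXY, its upstream receptor, fell by 0.28 (adjusted p = 0.00123). HB-8 was the other cambium gene called higher, by 0.44 (adjusted p = 0.00127). Of 9 tested phloem genes, 5 were lower and none higher. SWEET12, a sucrose exporter, had 32.2, 28.0 and 23.2 FPKM in ccrfer, against 75.1, 68.4 and 77.4 FPKM in labelled fer (difference -1.38, adjusted p = 5.96e-07), but SUC2, which loads sucrose into companion cells, differed by 0.17 (adjusted p = 0.401). The sucrose exporter fell while the loader held no call. Without ccrfer replicate 3, 1 phloem gene was called higher. Of 9 epidermis and cuticle genes, 4 were higher and 1 lower: beside CER1, CER3, its partner in alkane synthesis, rose by 0.67 (adjusted p = 1.71e-05), and the wax genes KCS6 and ABCG12 had no call. The gene called lower, KCS10, fell by 0.24 (adjusted p = 0.0379), and no gene was called lower without ccrfer replicate 1 or ccrfer replicate 3, while 2 were without ccrfer replicate 2. Root genes such as CASP1 were near 0, and of 2 tested, SHR was higher by 0.37 (adjusted p = 0.0164). Defining genes of xylem, phloem and epidermis were present in both groups, among them IRX3, SUC2 and KCS6.

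**Figure D4:**
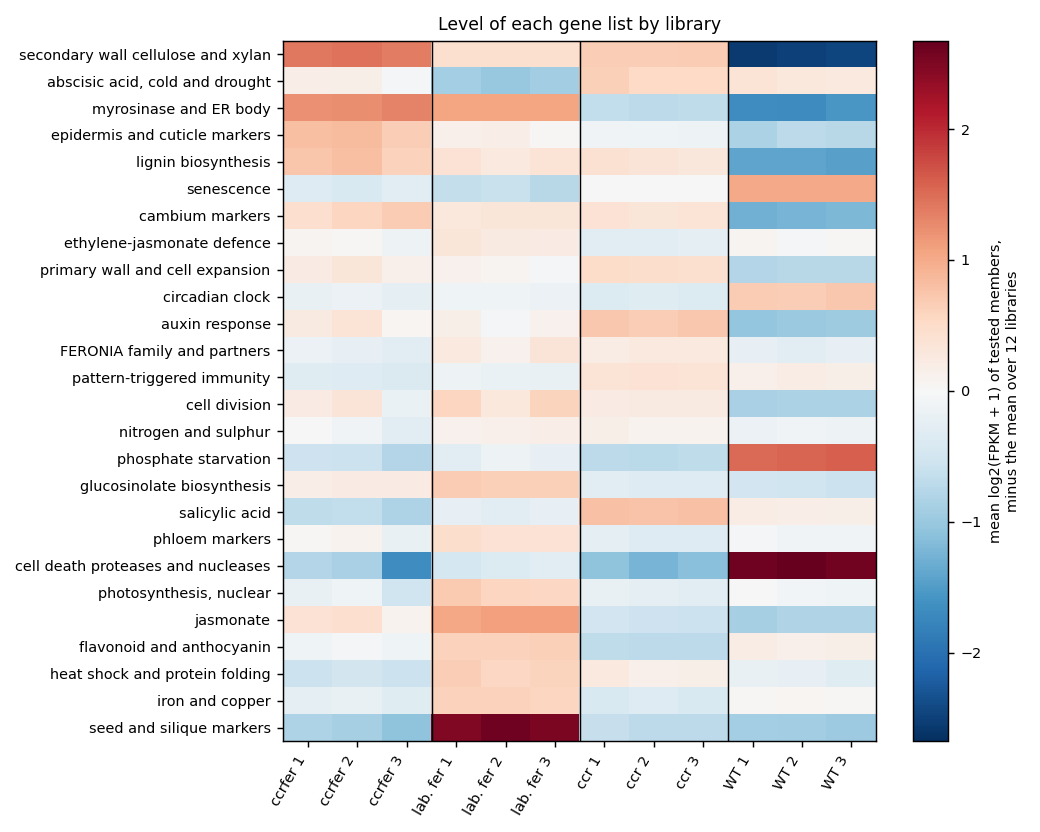
Mean log2(FPKM + 1) of the tested members of each gene list in each of the 12 libraries, minus its mean over the libraries (colour; red above, blue below), with ccrfer left of labelled fer, then ccr and WT. Seed and silique genes are high in the 3 libraries labelled fer only, and secondary wall genes are highest in ccrfer and lowest in WT.

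Whether ccrfer differed from labelled fer as ccr differed from WT was tested by the interaction. It subtracts the change in ccr relative to WT from that in ccrfer relative to labelled fer. These comparisons share no library. By its means, FER was at 0.849 FPKM in ccrfer and 84.1 FPKM in labelled fer, against 98.2 FPKM in ccr and 84.1 FPKM in WT. The parts of ccr1-3 and of FER transcript in a called interaction therefore cannot be told apart. The interaction was called for 7270 of 18428 genes (39.5%), 3149 higher (17.1%) and 4121 lower (22.4%). Of the 7481 genes called between ccrfer and labelled fer, 4550 also had a called interaction. The interaction contains the difference between ccrfer and labelled fer, so this overlap is partly built in and is not read as a result. For ccr against WT, 8058 genes (43.7%) were called, 4416 higher (24.0%) and 3642 lower (19.8%). Both comparisons called 4262 genes, of which 2376 (55.7%) had the same direction and 1886 opposite directions. Pearson's r of the 2 differences across tested genes was 0.113, and genes are not independent replicates.

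Flavonoid and anthocyanin genes had a called interaction in 6 of 15, 4 higher and 2 lower, close to the share over all genes. Those without one included DFR and PAP1. DFR fell by 1.38 in ccrfer against labelled fer and by 1.27 in ccr against WT, an interaction of -0.11 (adjusted p = 0.294). PAP1 fell by 1.77 and by 1.73, an interaction of -0.04 (SE 0.0795, adjusted p = 0.729). RD22 also showed no called interaction, at 0.02 (adjusted p = 0.873), with increases of 2.68 in ccrfer and 2.65 in ccr. CER1 rose by 4.13 and 3.67 (interaction 0.47, adjusted p = 0.199).

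Secondary wall genes differed between the comparisons in size. IRX3 rose by 1.58 in ccrfer against labelled fer and by 5.18 in ccr against WT, an interaction of -3.61 (adjusted p = 1.84e-09). The list's interaction was lower for 21 of 23 tested genes. Its summed level was 832 to 845 FPKM in ccr and 87.3 to 92.2 FPKM in WT, so labelled fer, at 652 to 689 FPKM, already stood above WT. Lignin genes also gave 21 of 23 lower interactions. For these lists WT was the low group among the 4 genotypes.

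Single genes of other lists changed direction. LTI78 rose by 3.35 in ccrfer against labelled fer and fell by 1.16 in ccr against WT, an interaction of 4.51 (adjusted p = 7.70e-10). LHY fell by 1.31 in ccrfer and rose by 2.25 in ccr, an interaction of -3.55 (adjusted p = 2.25e-11). VSP2 fell by 1.25 in ccrfer and rose by 2.91 in ccr, an interaction of -4.16 (adjusted p = 1.68e-11). BGL2 fell by 1.05 in ccrfer and rose by 1.46 in ccr, an interaction of -2.51 (adjusted p = 1.66e-09). SAG12 rose by 2.62 in ccrfer and fell by 3.33 in ccr, an interaction of 5.95 (adjusted p = 3.06e-11). These 5 genes changed sign between the comparisons. So did further members of the clock, jasmonate, salicylic acid and senescence lists, among them CCA1, LOX2, EDS16 and NAC6. Some members kept their direction. AOC1, of jasmonate synthesis, fell by 2.07 in ccrfer and by 2.02 in ccr, an interaction of -0.04 (adjusted p = 0.966). ACD6, of the salicylic acid list, fell by 1.85 in ccrfer and by 2.15 in ccr, an interaction of 0.30 (adjusted p = 0.279). The list of abscisic acid, cold and drought had 6 of 18 higher and 5 lower between ccr and WT, with a median of 0.02. Photosynthesis genes, lower in 25 of 25 between ccrfer and labelled fer, had 12 of 25 lower and 1 higher between ccr and WT, and 15 had a called interaction, each lower.

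**Figure D5:**
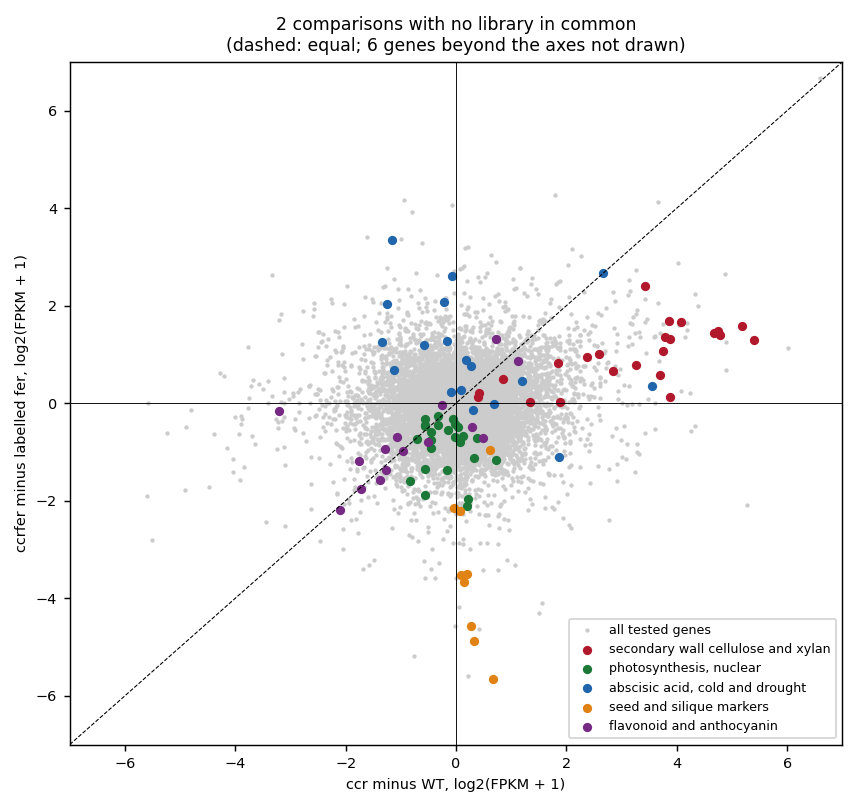
Difference ccrfer minus labelled fer (vertical axis) against difference ccr minus WT (horizontal axis), both on the log2(FPKM + 1) scale, for all tested genes (grey) and 5 gene lists (colours); the dashed line marks equal differences, and 6 genes lie beyond the axes. Secondary wall genes lie below the line at the right, flavonoid and anthocyanin genes lie on both sides of it, 6 of 15 with a called interaction, and seed genes, most of which passed the filter only through labelled fer, lie low.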

How the data were processed

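Poly(A) RNA of 12 stem libraries was sequenced with a stranded kit, per the labels' protocols. The submitters' processing notes name the TAIR10 build, Bowtie2 2.3.2.0, TopHat2 2.1.1, Cufflinks 2.2.1 and Cuffdiff, and a file header names the Araport11 annotation. FPKM values for 27655 genes were computed by the authors, and whether they were further normalized between libraries is not given. Read counts and the mapped fraction per library were deposited by the authors in a read report. Counts per gene were not used, so the counting error of single genes is unknown. The authors' table of selected genes was not used.

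log2(FPKM + 1) of genes that reached FPKM 1 in 3 or more of 12 libraries was fitted with limma 3.58.1 (R 4.3.3), with a mean per genotype over all 12 libraries, no replicate block and a mean-variance trend. Tests were two-sided, with Benjamini-Hochberg adjustment over 18428 genes. The fit was tested on simulated data. Symbols, coordinates and promoters came from RefSeq TAIR10.1, which matched 27445 identifiers. The FPKM table holds no coordinates.

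Named genes were CCR1, FER, 4 genes on each side of FER, the 15 largest called differences each way with libraries that did not overlap and a mean FPKM of at least 5 in the higher genotype, the 5 largest interactions each way, and up to 4 members of each of 28 lists; other list members in the text were chosen after their values were seen. Members and lists were chosen with earlier results of these data known. Alternatives were another filter, no filter, a pseudocount of 0.1, median-of-ratios and quantile scaling, no trend, the 6 libraries alone, AT2G01021 as a covariate, a replicate block, each library left out and, added after seeing the data, genes at 0 throughout a genotype left out.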

Additional observations from a re-analysis of the deposited data

Results flagged for a closer look

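The difference between ccrfer and labelled fer departed from that between ccr and WT for 7270 genes by limma's test of the interaction. The 5 largest interactions in each direction among well expressed genes are given as values on the log2(FPKM + 1) scale. Of these 10 genes, 2 had no genotype listed at 0: SAG12 at 5.95 (adjusted p = 3.06e-11) and MLP28, of the major latex protein family, at -7.36 (adjusted p = 2.94e-10). MLP28 averaged 629 FPKM in ccrfer and 2684 FPKM in labelled fer, against 90.2 FPKM in ccr and 1.42 FPKM in WT. The other 8 rest on at least 1 genotype listed at 0 in all 3 libraries, so their interactions depend on the pseudocount. SESA3 and CAT3 were listed at 0 in WT, with interactions of -6.33 and -11.43. ATCG00340, ATCG00350 and AT2G07698 were listed at 0 in ccr, with interactions of 12.47, 12.2 and 8.98. AT4G03157 was listed at 0 in ccrfer and labelled fer, with an interaction of 5.59. ATCG00490 and RR3 were listed at 0 in ccrfer, ccr and WT, with interactions of -14.55 and -12.69. ATCG00490, RR3 and SESA3 passed the filter on low FPKM only through labelled fer, so their interactions are not read as a result. Whether these zeros are failed estimates was not tested.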

How the results depend on the processing

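The 7481 calls between ccrfer and labelled fer lay between 6584 and 8262 under 8 other choices of filter, pseudocount, scaling, trend, covariate and block. The exception was the fit to the 6 libraries alone, with 4380 calls (1938 higher, 2442 lower). Leaving out each ccrfer or labelled fer library in turn gave 6800 to 8179 calls, 3230 to 3988 higher and 3543 to 4191 lower. Fits without a ccr or WT library were not counted for these calls, nor for those of the named genes below. Leaving out each of the 12 libraries in turn gave 6244 to 8415 called interactions. Quantile normalization turned the majority, with 3939 higher and 3616 lower. With the replicate number as a block, 7315 genes were called, 7122 of them among the 7481, and 7113 interactions. After genotype means were subtracted, 18 same-number pairs correlated between -0.129 and 0.191. Pairs of unlike number were not set beside them, so whether the numbers pair the libraries is not settled. Without genes listed at 0 throughout a genotype, an alternative added after seeing the data, 7439 were called. Of 126 called named genes, 17 lost the call under at least 1 alternative, 15 of them in the fit to the 6 libraries alone, and none reversed. The cause was not tested. Counts of the smaller lists changed with single libraries: the 2 ethylene and jasmonate defence genes called higher became 1 without ccrfer replicate 1, ccrfer replicate 3 or labelled fer replicate 3. The FPKM hold no counts, so genes near the lowest values, which were highest in ccrfer replicate 3 (1st percentile of values above 0, 0.543 FPKM), are the least certain.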

Other observations

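The next 10 genes each way after the 15 largest differences, by the same rule, were looked at after their values were seen. Among the increases, SEX4, a phosphoglucan phosphatase of starch breakdown, had 90.5, 93.6 and 88.0 FPKM in ccrfer, against 12.3, 9.79 and 14.4 FPKM in labelled fer (difference 2.81, adjusted p = 2.99e-09). LTP3, a lipid transfer protein, had 844, 805 and 647 FPKM in ccrfer, against 109, 112 and 112 FPKM in labelled fer (difference 2.76, adjusted p = 1.03e-09). LAC12, a laccase, had 39.2, 34.2 and 45.5 FPKM in ccrfer, against 6.21, 4.07 and 5.05 FPKM in labelled fer (difference 2.74, adjusted p = 3.55e-08). SEX4 and LTP3 were below WT in labelled fer, at WT means of 67.3 and 222 FPKM, while LAC12 averaged 1.57 FPKM in WT. MAF5, a MADS factor of flowering time, had 15.3, 12.1 and 70.1 FPKM in ccrfer, with replicate 3 apart from the others, against 1.93, 2.34 and 4.57 FPKM in labelled fer (difference 2.71, adjusted p = 0.00209).

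Among the decreases, ATBETAFRUCT4, a vacuolar invertase that splits sucrose, had 82.8, 88.1 and 62.5 FPKM in ccrfer, against 885, 793 and 815 FPKM in labelled fer (difference -3.41, adjusted p = 8.97e-10). BR6OX2, a brassinosteroid oxidase at the end of hormone synthesis, had 5.52, 3.56 and 4.55 FPKM in ccrfer, against 46.4, 52.1 and 58.1 FPKM in labelled fer (difference -3.27, adjusted p = 6.02e-09). Both genes were higher in labelled fer than in the other 3 genotypes by their means. AT1G47395, AT1G47400 and AT2G30766 differed by -3.31, -3.22 and -3.39.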
